A study of Mus musculus with 5 samples.

Results

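Nonclassical monocytes of mouse bone marrow were compared with classical monocytes of the same tissue, gene by gene, on 1 array each. The genes described are those whose higher value on the 2 arrays reached the median of all gene values in the series, a log2 value of 6.27 that is called the floor below. This chose 10503 of 19938 measured genes, and the other 9435 lay under the floor on both arrays. Affymetrix arrays, which read RNA by hybridisation to short probes, gave 1 log2 value per probe set, and each gene was read by its brightest probe set with 1 gene symbol.

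The nonclassical cells were Ly6C- and TremL4+, and the classical cells were Ly6C+ and TremL4-. Both were taken as lineage-negative CD115+ cells from untreated wild-type C57Bl/6 mice, by flow sorting, and the age, sex and number of mice behind an array are not stated in the labels. The series also holds 1 array each of 3 progenitors from the same marrow: the monocyte-dendritic cell progenitor (MDP), the common dendritic cell progenitor (CDP) and the common monocyte progenitor (cMoP), which are used below to place a level. The submitters put the purity of the sorts above 95%, extracted RNA with an RNAqueous-Micro kit and labelled it with a Nugen Encore Biotin kit. With 1 array per population there is no spread between replicates, so no difference below has a test, and every value describes these 2 arrays.

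Classical monocytes are made from marrow progenitors, leave for the blood through the chemokine receptor CCR2 and enter inflamed tissue. Nonclassical monocytes patrol the walls of blood vessels, arise largely from classical monocytes, and depend on the nuclear receptor NR4A1 and on signalling through CD115, the receptor for colony-stimulating factor 1. They are non-dividing cells with a low level of Ly6C and a high level of the fractalkine receptor CX3CR1.

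A gene is called higher or lower in nonclassical monocytes where its log2 value differed by 1 or more, that is, 2-fold or more. By this rule 373 genes were higher in nonclassical than in classical monocytes (3.55% of the 10503) and 1031 were lower (9.82%). These shares are the background for each list count below. At 2 log2 units or more, which is 4-fold, 116 genes were higher (1.1%) and 313 lower (2.98%), and at 16-fold 19 were higher and 56 lower. The remaining 9099 genes, 86.6%, differed by less than 1 log2 unit. Of the called genes 26.6% were higher, and that share was 36.7% once a smooth curve of difference against level was subtracted, with 473 genes higher and 817 lower. A fold change is given as measured where both values reached the floor, and as "at least" the higher value over the floor where 1 of them did not. Among the higher genes 100 had a classical value under the floor, and among the lower genes 333 had a nonclassical value under it.

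The 2 arrays had similar middles. The median over all probe sets was 6.16 on the nonclassical and 6.07 on the classical array, and over genes the arrays correlated with a Pearson r of 0.948, a description over genes of the same 2 arrays. The middle of the nonclassical array was narrower, with quartiles of 4.87 and 7.75 against 4.77 and 7.90 on the classical array. Genes with a mean level between 6 and 7 had a median difference of 0.07, and those between 10 and 11 one of -0.28. Exactly equal values on both arrays were found for 456 genes, 4.34% of those past the floor. At the threshold itself, Slc46a3 (9.80 in nonclassical and 8.80 in classical monocytes) was just inside and B4galt5 (10.43 in nonclassical and 9.43 in classical cells) just outside on the higher side, and Txnl1 (8.48 in nonclassical and 9.48 in classical cells) just inside and Ift57 (7.31 in nonclassical and 8.31 in classical cells) just outside on the lower side.

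**Figure D1:**
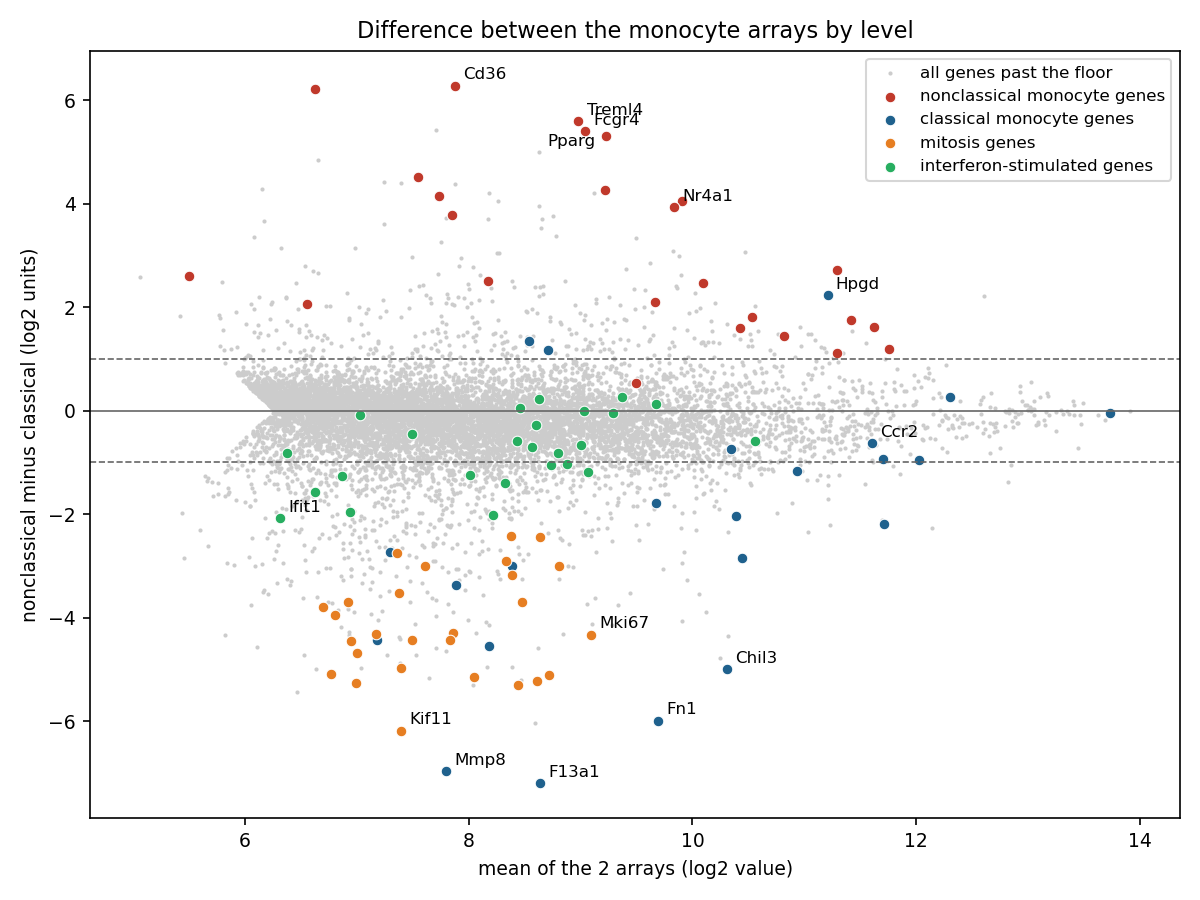
Difference between the arrays (nonclassical minus classical, log2 units) against the mean of the 2 arrays (log2 value) for the 10503 genes past the floor, with 4 gene lists in colour and dashed lines at 1 log2 unit either way. Nonclassical monocyte genes lie above 0, mitosis genes lie below -2, and F13a1 and Cd36 mark the lower and upper ends among the listed genes.

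The sort gate was read back first. Treml4, the TREM-family receptor used to sort the cells, had a log2 value of 11.78 in nonclassical monocytes and 6.18 in classical monocytes, and 5.02, 5.42 and 5.72 in MDP, CDP and cMoP. It was at least 45.6-fold higher on the nonclassical array, as the gate fixes, and is not a finding. Csf1r, which encodes CD115 and was required of both populations, was at 12.21 in nonclassical and 10.90 in classical monocytes. The Ly6C side of the gate was not analysed here, because the probe sets for it list more than 1 gene.

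Promoter windows of 4 genes are shown because they carry letters discussed with the results they belong to. Each runs from 250 bases before to 50 bases after the annotated start in RefSeq, on build GRCm38.p6, and is written 5′ to 3′ on the strand of the gene. The first pair belongs to genes of mitosis that were lower in nonclassical monocytes. Capitals mark the cell cycle homology region, TTTGAA, and the CCAAT box, each searched on both strands, so that ATTGG is a CCAAT box on the opposite strand. Ccnb2 lies at chr9:70421505-70421804 on the minus strand and Cdk1 at chr10:69352863-69353162 on the minus strand.
Ccnb2: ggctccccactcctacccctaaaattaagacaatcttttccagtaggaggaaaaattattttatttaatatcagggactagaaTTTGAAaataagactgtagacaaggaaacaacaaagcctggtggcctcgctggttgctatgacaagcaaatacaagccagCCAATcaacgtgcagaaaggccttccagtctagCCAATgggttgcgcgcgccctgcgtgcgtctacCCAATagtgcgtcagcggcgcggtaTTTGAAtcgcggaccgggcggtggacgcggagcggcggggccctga
Cdk1: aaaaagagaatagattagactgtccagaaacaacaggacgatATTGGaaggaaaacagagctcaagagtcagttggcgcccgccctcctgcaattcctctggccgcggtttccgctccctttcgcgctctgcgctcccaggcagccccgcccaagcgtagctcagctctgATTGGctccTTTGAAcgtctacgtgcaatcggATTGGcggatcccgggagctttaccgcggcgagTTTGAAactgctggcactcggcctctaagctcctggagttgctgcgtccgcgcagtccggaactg
The second pair belongs to genes that were higher in nonclassical monocytes. Capitals mark GAGGAAGT, a common form of the site bound by PU.1, the ETS factor of the myeloid lineage, which appears here as ACTTCCTC on the opposite strand. Fcgr4 lies at chr1:171018676-171018975 on the plus strand and Adgre4 at chr17:55749734-55750033 on the plus strand.
Fcgr4: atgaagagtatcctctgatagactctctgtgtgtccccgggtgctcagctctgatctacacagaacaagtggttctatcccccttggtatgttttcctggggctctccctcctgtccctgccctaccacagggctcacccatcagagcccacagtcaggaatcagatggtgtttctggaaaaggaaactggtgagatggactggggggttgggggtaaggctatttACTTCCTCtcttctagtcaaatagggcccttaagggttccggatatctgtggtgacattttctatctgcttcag
Adgre4: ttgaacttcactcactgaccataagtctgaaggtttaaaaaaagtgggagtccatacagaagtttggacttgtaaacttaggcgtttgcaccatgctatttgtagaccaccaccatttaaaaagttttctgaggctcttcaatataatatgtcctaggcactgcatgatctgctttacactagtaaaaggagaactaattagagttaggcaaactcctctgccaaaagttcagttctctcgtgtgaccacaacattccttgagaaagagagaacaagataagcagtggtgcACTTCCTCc

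Genes known from nonclassical monocytes were high in the Ly6C- TremL4+ cells. Of 25 listed genes past the floor, 24 were higher and none lower, with a median difference of 2.60 against -0.09 over all 10503 genes, and Spn, the sialoglycoprotein CD43, was the exception at 9.76 in nonclassical and 9.23 in classical monocytes. The list holds Treml4, whose difference the gate fixes, and without it 23 of 24 were higher, with a median of 2.55. This list, like the others, was chosen with earlier results of these data known, so its count is not an outside check. Cd36, a scavenger receptor for oxidised lipids, was at 11.02 in nonclassical monocytes, against 4.74 in classical monocytes and 4.19, 4.43 and 4.12 in MDP, CDP and cMoP, which is at least 27-fold higher on the nonclassical array. Fcgr4, the activating Fc receptor of mouse nonclassical monocytes, was at 11.75 in nonclassical monocytes and 6.34 in classical monocytes (42.4-fold higher), and at 5.10, 4.78 and 6.30 in MDP, CDP and cMoP. Ace, the angiotensin-converting enzyme, was at 11.89 in nonclassical and 6.57 in classical cells (39.8-fold higher), and between 5.56 and 5.91 in the progenitors. These genes stood high on the nonclassical array alone.

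Other members of the list differed less, and several of them were high on both arrays. Adgre4, an adhesion receptor of the EMR family, was at 11.94 in nonclassical and 7.88 in classical monocytes, a 16.7-fold difference. Eno3, an enolase best known from muscle, was at 11.35 in nonclassical and 7.09 in classical cells, and its other 3 arrays read between 7.07 and 7.13. Cx3cr1, the fractalkine receptor, was at 12.29 in nonclassical and 10.54 in classical cells, so that it was bright in both monocytes, and Itgal, the alpha chain of LFA-1, was at 11.43 in nonclassical and 9.62 in classical cells. Ceacam1, an adhesion and inhibitory receptor, was at 11.85 in nonclassical and 10.73 in classical cells. Itgax (CD11c), another integrin alpha chain, stayed near the floor at 6.80 in nonclassical monocytes and was at 4.20 in classical monocytes.

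Genes known from classical monocytes were mostly low in nonclassical monocytes, with exceptions. Of 23 past the floor 14 were lower and 3 higher, and the median difference was -2.04. Fn1, fibronectin, was at 6.70 in nonclassical monocytes and 12.69 in classical monocytes, which is 63.4-fold lower on the nonclassical array, and at 7.01, 9.45 and 7.39 in MDP, CDP and cMoP. F13a1, the catalytic subunit of coagulation factor XIII, was at 5.04 in nonclassical monocytes, against 12.24 in classical monocytes and 11.38, 11.55 and 11.40 in the progenitors, at least 62.6-fold lower. It was bright on every array but the nonclassical one. Chil3, a secreted chitinase-like lectin, was at 7.81 in nonclassical and 12.80 in classical monocytes, and Mmp8, neutrophil collagenase, at 4.32 in nonclassical and 11.28 in classical cells. The exceptions were Hpgd, which degrades prostaglandins (12.32 in nonclassical and 10.09 in classical cells), the lysozyme gene Lyz1 (9.22 in nonclassical and 7.87 in classical cells) and Clec4e, the lectin Mincle (9.29 in nonclassical and 8.13 in classical cells). Ccr2, the receptor of marrow exit, was at 11.29 in nonclassical and 11.92 in classical monocytes, a difference of -0.63, and Lyz2 was at 13.71 in nonclassical and 13.76 in classical cells. The list's median rested on genes that other lists also hold, since over the 6 members of no other list it was 0.11.

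**Figure D2:**
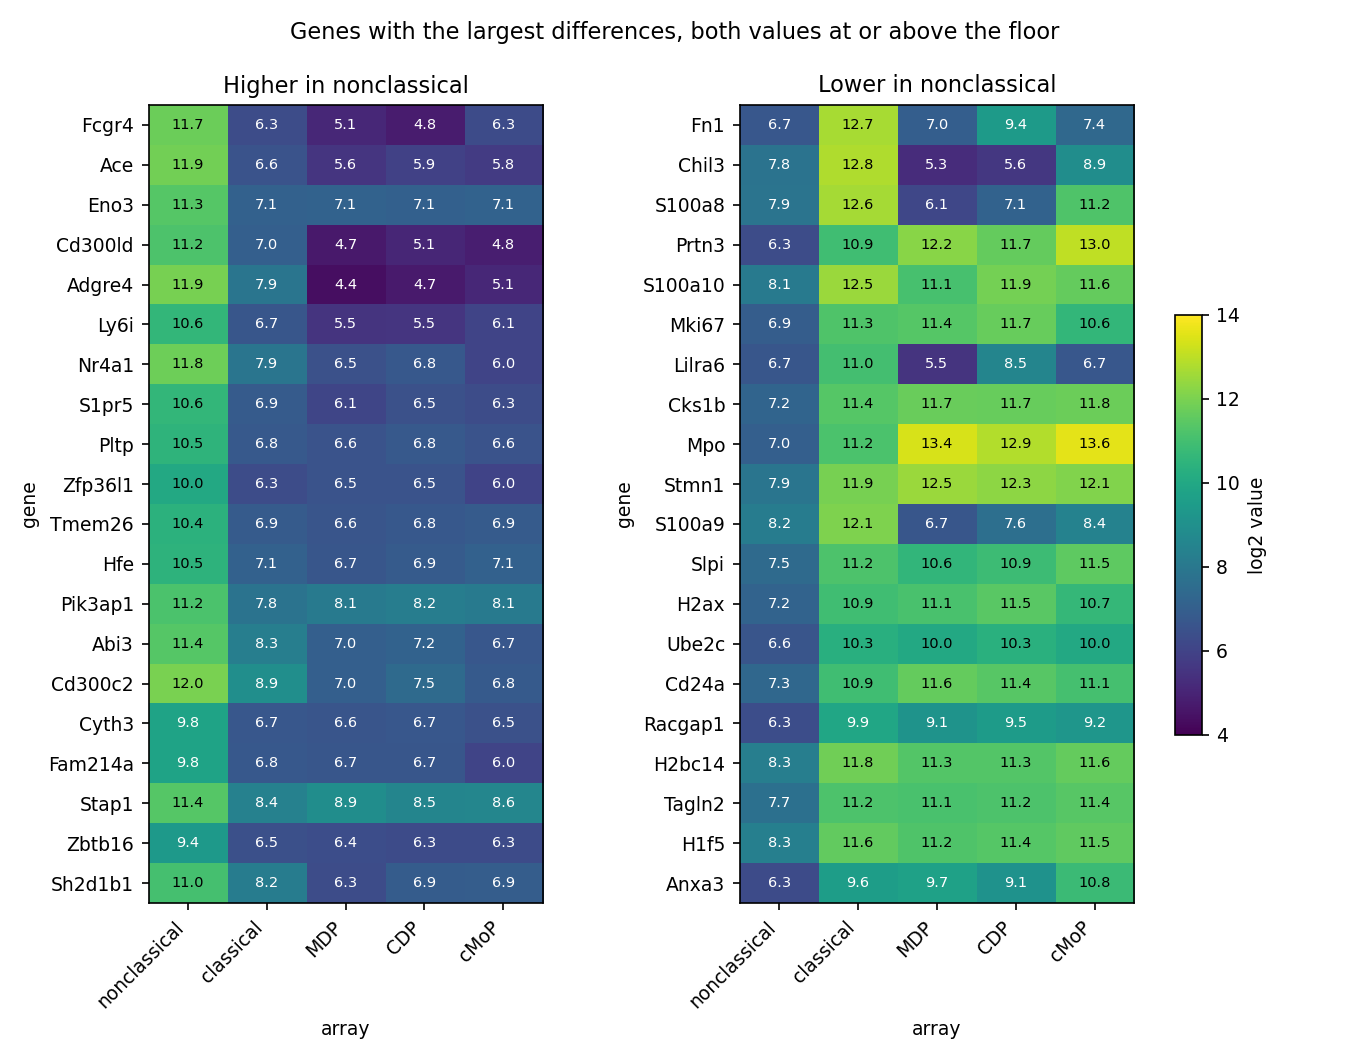
Log2 values on the 5 arrays for the 20 genes with the largest differences each way among those with both values at or above the floor, nonclassical in the first column, classical in the second and the 3 progenitors after them. In the left panel the nonclassical column stands apart, and in the right panel most genes are bright in the progenitors as well as in classical monocytes.

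Genes of cell division were low in nonclassical monocytes. All 27 mitosis genes past the floor were lower in nonclassical monocytes, with a median difference of -4.32 against a background of 9.82% of genes lower. Kif11, the kinesin that separates spindle poles, was at 4.30 in nonclassical monocytes, against 10.48 in classical monocytes and 10.30, 10.41 and 10.27 in MDP, CDP and cMoP. Ccnb2, a B-type cyclin, was at 5.79, against 11.09 in classical monocytes and 10.71, 10.94 and 10.71 in the progenitors, at least 28.3-fold lower in nonclassical monocytes. Mki67, the gene of the Ki-67 antigen of dividing cells, was at 6.93 in nonclassical and 11.26 in classical monocytes. Cdk1, the kinase of mitotic entry, was at 5.72 in nonclassical and 10.01 in classical cells. Aurka, the kinase of the spindle poles, was among the smallest differences of the list, at 7.16 in nonclassical and 9.59 in classical cells. In the median over the list the nonclassical array read 5.62, against 9.78 on the classical array and 9.64, 9.87 and 9.63 on the MDP, CDP and cMoP arrays. The classical array read these genes close to the progenitor level, and each of the 27 was lower on the nonclassical array by 1 log2 unit or more than on every other array. Fewer dividing cells and less RNA per cell cannot be told apart in sorted populations read as a whole. Markers of stem and early progenitor cells were lower in 3 of 9 cases past the floor (Myb at 5.68 in nonclassical and 8.54 in classical cells, Cd34 at 5.89 in nonclassical and 7.24 in classical cells, Spink2 at 5.75 in nonclassical and 6.85 in classical cells) and higher in 1 (Sox4), and Kit lay under the floor on both arrays (5.61 in nonclassical and 5.79 in classical cells). Their part in the result was not tested.

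DNA replication genes followed mitosis genes at a smaller distance. Of 29 past the floor 22 were lower and none higher, with a median of -2.0, and all 22 were lowest on the nonclassical array by 1 log2 unit or more. Rrm2, a subunit of ribonucleotide reductase, was at 5.98 in nonclassical and 10.02 in classical monocytes, Prim1, a DNA primase subunit, at 5.88 in nonclassical and 9.38 in classical cells, and Mcm6, part of the replicative helicase, at 7.82 in nonclassical and 10.22 in classical cells. Pcna, the sliding clamp, which also serves repair, remained bright at 11.12 in nonclassical monocytes and was at 12.11 in classical monocytes, just short of the threshold.

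D cyclins, their kinases and inhibitors differed member by member. Of 11 past the floor 1 was higher and 4 were lower, and the median was 0.27, or -0.41 over the 9 members past a floor at the upper quartile. Cdkn2c, the inhibitor p18, was at 6.76 in nonclassical and 9.48 in classical monocytes, and Cdk4, the kinase it binds, at 8.87 in nonclassical and 10.37 in classical cells. Cdk6, the partner kinase, was at 8.90 in nonclassical and 7.71 in classical cells. Cdkn1b, the inhibitor p27, was at 11.39 in nonclassical and 10.68 in classical cells, and Rb1, the retinoblastoma protein, at 10.32 in nonclassical and 9.79 in classical cells, both under the threshold. Myc, a transcription factor of growth, was at 5.61 in nonclassical and 8.66 in classical monocytes, at least 5.25-fold lower. Ribosome biogenesis genes had a median of -0.46, with 4 of 24 lower, among them the nucleolar methyltransferase Fbl (9.52 in nonclassical and 10.91 in classical cells). Of 27 ribosomal protein genes, Rpl14 was the 1 called lower, and the median was -0.23.

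The promoter letters were counted for the genes with 1 RefSeq window. Of the 20 lower mitosis genes with such a window, 15 (75.0%) held TTTGAA, against 11.9% of the 6840 windows of genes past the floor and 18.5% of all 22862. CCAAT stood in 15 of the 20 (75.0%, against 39.4% and 38.2%). Both stood in 13 of the 20, or 65.0%, against 5.04% and 7.21%. Within 50 bases before and 20 after the start, 9 of the 20 windows held TTTGAA, against 2.38% of the windows past the floor. In the Ccnb2 window printed above 1 TTTGAA begins at base 5 after the start with CCAAT boxes beginning at -87, -54 and -21, and in the Cdk1 window TTTGAA begins at -71 and -15. Among the genes lower by 4-fold or more both motifs stood in 27.4% of 234 windows, and among the lower replication genes in 13.3% of 15. A match is a description of letters, not of binding. The 20 genes come from a list chosen as mitosis genes, so their shares do not bear on their being lower.

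**Figure D3:**
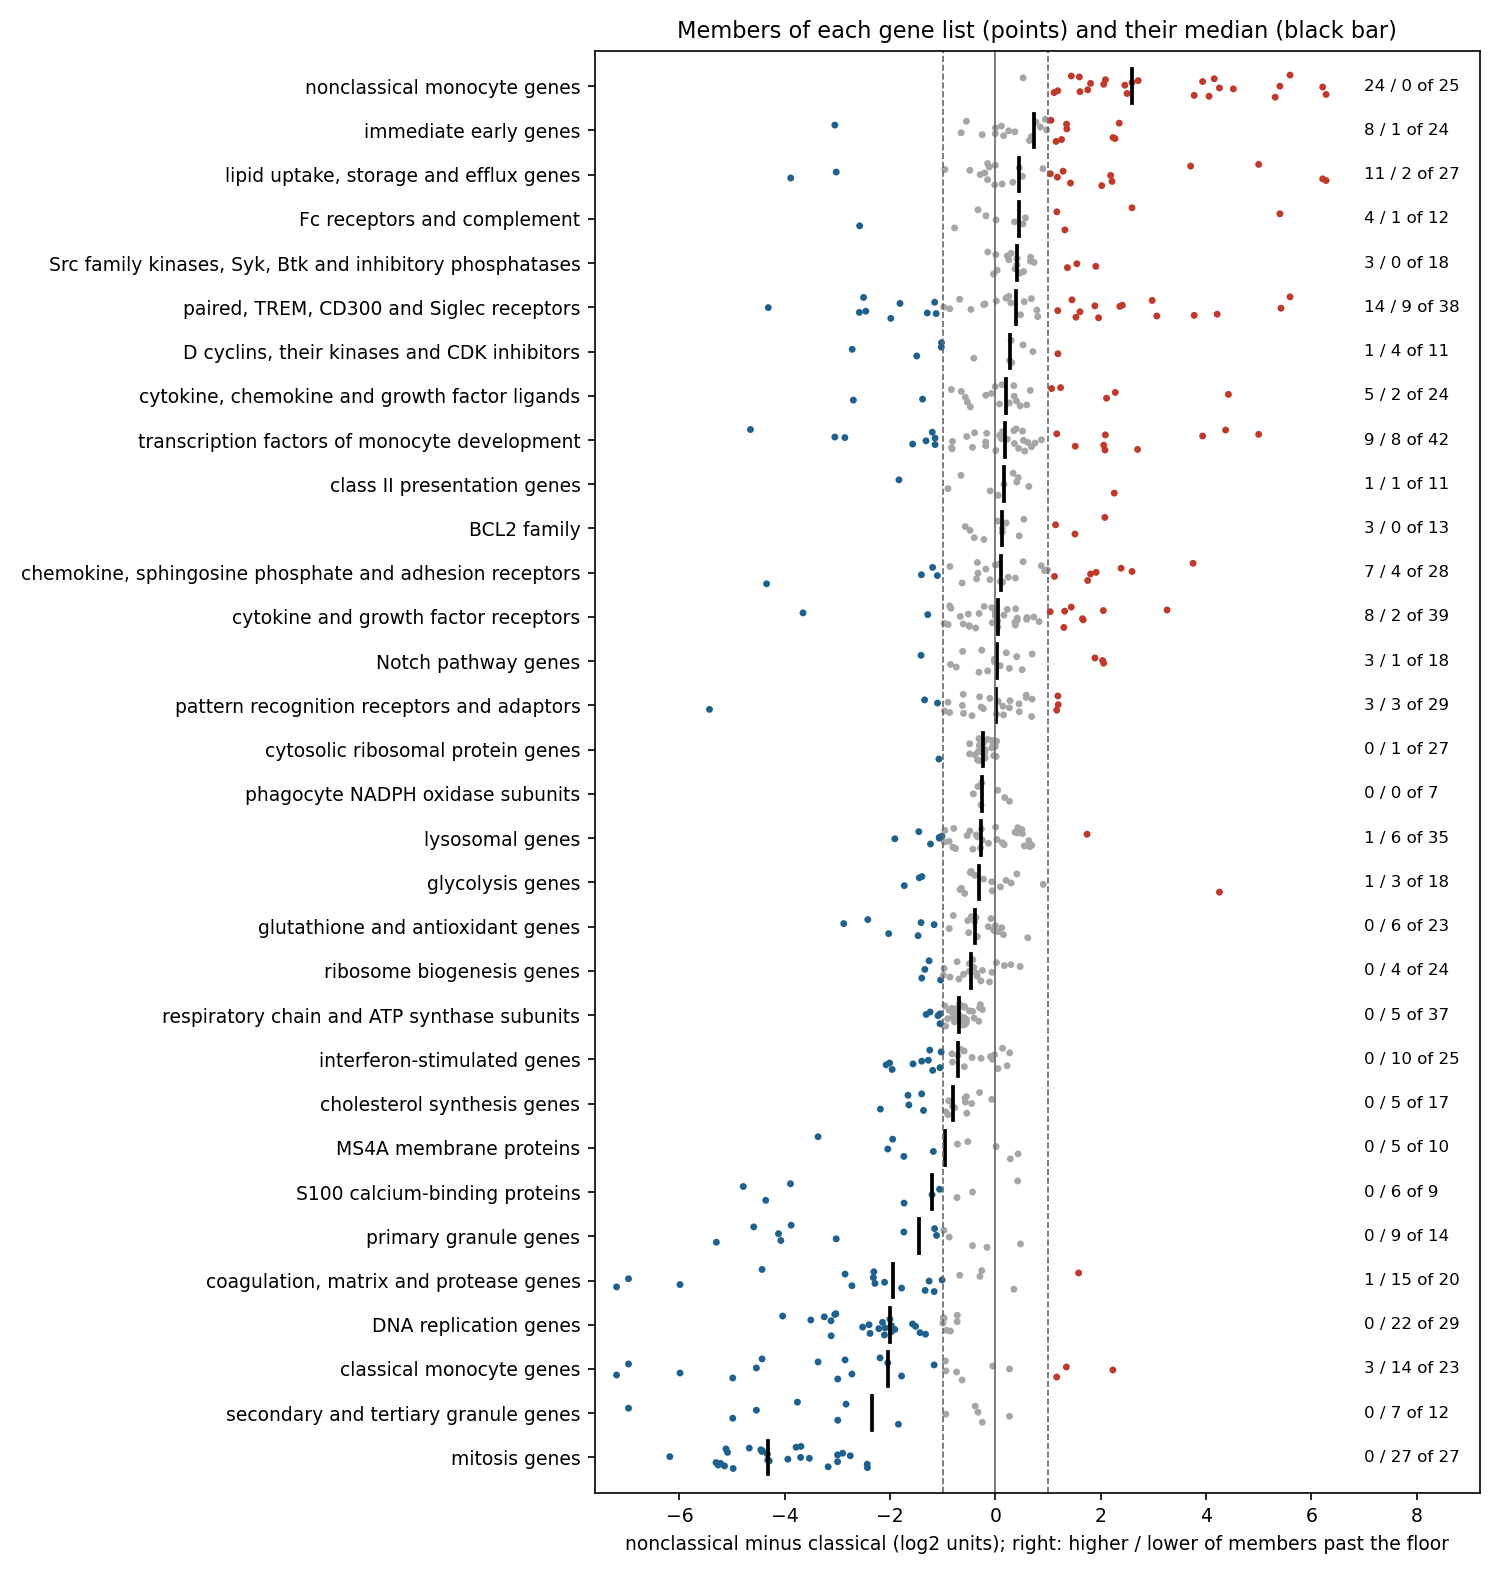
Differences (nonclassical minus classical, log2 units) of the members past the floor in 32 gene lists, 1 point a gene, with the list median as a black bar and, at the right, the number higher and lower of the number past the floor. Red points are higher and blue points lower by 1 log2 unit or more. Nonclassical monocyte genes stand at the top with 24 of 25 higher, and mitosis genes at the bottom with 27 of 27 lower.

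Transcription factors of monocyte development divided both ways. Of 42 past the floor 9 were higher and 8 lower in nonclassical monocytes, and the median was 0.18. Nr4a1, the nuclear receptor on which nonclassical monocytes depend, was at 11.81 in nonclassical monocytes, against 7.87 in classical monocytes and 6.48, 6.77 and 6.05 in MDP, CDP and cMoP, a 15.3-fold difference between the monocytes. Its relative Nr4a2 was at 6.48 in nonclassical and 6.40 in classical cells. Pparg, a nuclear receptor of lipid metabolism, was at 11.13 in nonclassical monocytes, and its other 4 arrays lay between 5.93 and 6.13, under the floor. Tcf7l2, a factor of the Wnt pathway, was at 10.07 in nonclassical and 5.69 in classical monocytes, with 7.46, 7.45 and 6.80 in the progenitors, so that the classical array was the lowest of the 5. Bcl6, a transcriptional repressor, was at 11.24 in nonclassical and 9.16 in classical cells, Pou2f2, the octamer factor OCT2, at 10.71 in nonclassical and 8.62 in classical cells, and Hes1, a Notch target, at 7.59 in nonclassical and 5.53 in classical cells. Bhlhe40, Ets1 and Relb completed the higher members.

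The lower factors included Tfec, an MITF-family factor, at 5.48 in nonclassical and 10.13 in classical monocytes. Myb, a progenitor factor, was at 5.68 in nonclassical and 8.54 in classical cells. Irf8, which directs progenitors to monocytes and dendritic cells, was at 9.0 in nonclassical and 10.32 in classical cells, and Id2, an inhibitor of E proteins, at 8.14 in nonclassical and 9.70 in classical cells. Several factors central to monocytes differed by under 1 log2 unit. Spi1, which encodes PU.1, was at 11.24 in nonclassical and 11.10 in classical monocytes. Cebpb, a C/EBP factor required by nonclassical monocytes, was at 8.98 in nonclassical and 8.53 in classical cells. Klf4 was at 9.70 in nonclassical and 9.47 in classical cells, Klf2 at 8.71 in nonclassical and 8.17 in classical cells, and Zeb2 at 11.05 in nonclassical and 10.66 in classical cells. GAGGAAGT, the PU.1 form shown above, stood in 9 of 75 windows of genes higher by 4-fold or more (12%) and in 16 of 220 windows of all higher genes (7.27%), against 3.38% of windows past the floor. Fcgr4, Bcl2a1c, Cd300ld and Adgre4 were among the holders. The match begins at -24 in the Fcgr4 window and at base 42 after the start in the Adgre4 window. G and C made up a median of 58.0% of the windows of genes higher by 4-fold or more and 61.0% of those past the floor. The same windows held a median of 13 and 21 CG dinucleotides, a wider gap. Whether these differences in base content alter the shares was not tested. A site bound by NR4A receptors, AAAGGTCA, stood in 2 of 75 windows of genes higher by 4-fold or more (2.67%) and in 0.909% of those of all higher genes, against 0.833% of those past the floor.

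**Figure D4:**
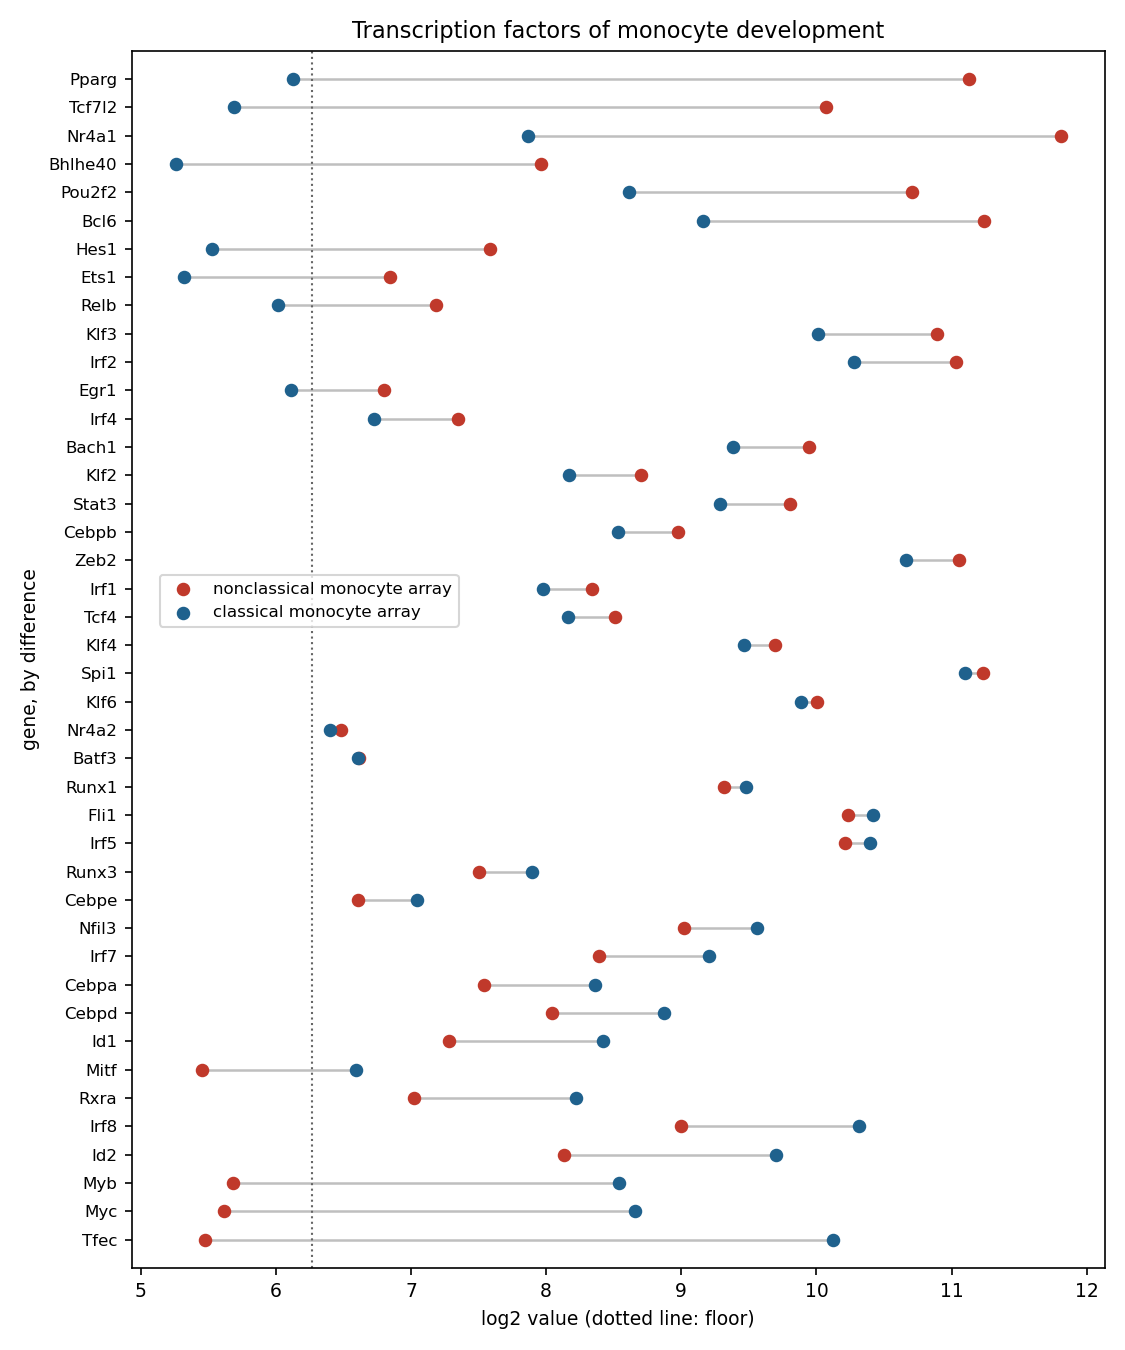
Log2 values of the 42 transcription factors past the floor on the nonclassical array (red) and the classical array (blue), in order of the difference, with a dotted line at the floor of 6.27. Pparg, Tcf7l2 and Nr4a1 have the widest gaps with the nonclassical value higher, Tfec, Myc and Myb the widest with it lower, and Spi1 lies near 11 on both arrays.

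Immediate early and signal-feedback genes leaned to the nonclassical side. Of 24 past the floor 8 were higher and 1, Myc, was lower, with a median of 0.73. Nfkbiz, an NF-kappaB cofactor, was at 10.65 in nonclassical and 8.30 in classical monocytes. Dusp1 and Dusp2, phosphatases that switch off MAP kinases, were at 11.16 in nonclassical and 8.88 in classical cells and at 8.73 in nonclassical and 6.50 in classical cells. Jun was at 10.10 in nonclassical and 8.74 in classical cells, and Nfkbia, the NF-kappaB inhibitor, at 10.29 in nonclassical and 8.94 in classical cells. Egr1 was at 6.80 in nonclassical and 6.11 in classical cells, under the threshold.

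Receptors that mature monocytes use to read their surroundings differed member by member. Of 38 paired, TREM, CD300 and Siglec receptors past the floor 14 were higher and 9 lower in nonclassical monocytes, and 13 of 37 were higher without Treml4, on which the cells were sorted. Over all genes the shares were 3.55% higher and 9.82% lower. Lilra5, an activating leukocyte Ig-like receptor, was at 10.42 in nonclassical monocytes, against 4.99 in classical monocytes and between 4.76 and 5.04 in the progenitors. Its relative Lilra6 went the other way, at 6.69 in nonclassical and 11 in classical monocytes. Cd300ld, an activating CD300 receptor, was at 11.22 in nonclassical and 7.01 in classical cells, Cd300e at 9.74 in nonclassical and 5.96 in classical cells and the adjacent Cd300c2 at 12.01 in nonclassical and 8.94 in classical cells, whereas Cd300lf was at 5.76 in nonclassical and 6.88 in classical cells. Pilra, Pilrb1 and Pilrb2, paired Ig-like receptors, differed by 2.36, 1.89 and 2.41. Clec4a1 and Clec4a3, lectins of the DCIR group, were at 12.43 in nonclassical and 10.82 in classical cells and at 12.35 in nonclassical and 11.16 in classical cells, and their neighbour Clec4a2 was at 7.59 in nonclassical and 10.04 in classical cells. Cd33, a sialic acid-binding inhibitory receptor, was at 6.60 in nonclassical and 9.19 in classical cells. Members of these families resemble each other in sequence, so probes may read a relative, which was not tested.

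Some genes that lie side by side, by gene order in RefSeq, shared a direction. Of the higher genes 71 (19% of those placed) stood in 31 runs of 2 or 3 neighbours, among them Cd300ld, Cd300c2 and Cd300e, Pilra, Pilrb1 and Pilrb2, and Plgrkt, Cd274 and Pdcd1lg2. Of the lower genes 172 (16.7%) stood in 82 runs, which included 3 histone runs on chromosome 13 and Slfn1, Slfn4 and Slfn3 on chromosome 11. The share that genes placed at random would give was not worked out, so these shares have no background beside them. Several runs hold related genes, whose probes may read a relative, which was not tested.

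Fc receptors and complement genes had 4 of 12 members higher and 1 lower, beside 3.55% higher and 9.82% lower over all genes. C5ar1, the receptor for complement fragment C5a, was at 8.98 in nonclassical and 7.65 in classical monocytes, and Cfp, properdin, at 7.61 in nonclassical and 10.19 in classical cells. Among 29 pattern recognition receptors and adaptors 3 were higher and 3 lower, a lower share close to the 9.82% of all genes. Tlr7, the receptor for single-stranded RNA, was at 9.81 in nonclassical and 8.62 in classical cells, and Nod1, a sensor of bacterial peptides, at 9.56 in nonclassical and 8.37 in classical cells. Clec5a, a DAP12-coupled lectin, was at 3.76 in nonclassical monocytes and 9.18 in classical monocytes. In class II presentation Cd74, the invariant chain, was at 9.79 in nonclassical and 7.53 in classical cells, while H2-DMa, which loads peptides, was at 8.74 in nonclassical and 10.57 in classical cells. H2-Aa and H2-Ab1, chains of the class II molecule itself, were near the floor on both arrays (6.47 in nonclassical and 6.30 in classical cells, 6.97 in nonclassical and 6.56 in classical cells).

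Trafficking genes had 7 of 28 higher and 4 lower, beside 3.55% higher and 9.82% lower over all genes. S1pr5, a sphingosine phosphate receptor, was at 10.63 in nonclassical monocytes, against 6.88 in classical monocytes and 6.10, 6.49 and 6.32 in MDP, CDP and cMoP, 13.5-fold higher than in classical monocytes. Ccr1, a chemokine receptor of inflammation, was at 3.65 in nonclassical and 7.99 in classical cells. Integrin alpha chains split: Itgav was at 10.60 in nonclassical and 8.68 in classical cells, Itga4 at 11.91 in nonclassical and 10.79 in classical cells, Itga5 at 7.10 in nonclassical and 8.20 in classical cells and Itga6 at 5.48 in nonclassical and 6.88 in classical cells. Cxcr4, which holds cells in marrow, was at 11.22 in nonclassical and 11.57 in classical cells.

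Survival and cytokine genes differed in few members, and their counts stand beside 3.55% higher and 9.82% lower over all genes. In the BCL2 family 3 of 13 were higher and none lower: Bcl2, which blocks apoptosis, at 8.75 in nonclassical and 7.23 in classical cells, and Pmaip1 (NOXA) and Bmf, which promote it, at 9.07 in nonclassical and 6.99 in classical cells and at 8.65 in nonclassical and 7.51 in classical cells. Bcl2a1c, an A1 relative outside that list, was at 9.08 in nonclassical and 4.23 in classical monocytes. Its relatives Bcl2a1a, Bcl2a1b and Bcl2a1d had no gene value here, and whether the Bcl2a1c probes read them was not tested. Mcl1 was bright in both, at 11.86 in nonclassical and 11.32 in classical cells. Of 39 cytokine and growth factor receptors 8 were higher, Csf1r of the gate among them, and 2 lower. All 3 TGF-beta receptor genes were higher, Tgfbr3 at 9.38 in nonclassical and 6.12 in classical cells, Tgfbr2 at 8.90 in nonclassical and 6.85 in classical cells and Tgfbr1 at 9.85 in nonclassical and 8.53 in classical cells. Met, the receptor for hepatocyte growth factor, was at 5.89 in nonclassical and 9.54 in classical cells, and its ligand gene Hgf at 9.27 in nonclassical and 7.15 in classical cells. Among 24 ligands 5 were higher and 2 lower. Il1b, interleukin-1 beta, was at 9.46 in nonclassical monocytes, against 5.03 in classical monocytes and between 4.50 and 4.85 in the progenitors. Tnf was at 9.41 in nonclassical and 8.34 in classical cells, and Cxcl10, an interferon-induced chemokine, at 5.61 in nonclassical and 8.31 in classical cells.

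Lipid handling and lipid synthesis differed in direction. Of 27 lipid uptake, storage and efflux genes 11 were higher and 2 lower, with a median of 0.46. Fabp4, a fatty acid carrier, was at 9.73 in nonclassical and 3.52 in classical monocytes, whereas its relative Fabp5 was at 5.92 in nonclassical and 9.81 in classical cells. Pltp, phospholipid transfer protein, was at 10.51 in nonclassical and 6.80 in classical cells, and Apoe, apolipoprotein E, at 13.71 in nonclassical and 11.50 in classical cells. Abca1 and Abcg1, which export cholesterol, were at 7.77 in nonclassical and 5.75 in classical cells and at 9.23 in nonclassical and 7.81 in classical cells. Msr1, scavenger receptor A, was at 7.42 in nonclassical and 10.44 in classical cells. Of 17 cholesterol synthesis genes 5 were lower and none higher, with a median of -0.81, and Fdps, farnesyl diphosphate synthase, had the largest difference at 6.56 in nonclassical and 8.75 in classical cells.

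Interferon-stimulated genes were lower or within the threshold in nonclassical monocytes. Of 25 past the floor 10 were lower and none higher, with a median of -0.71, and 7 of the 10 were high on the classical array alone, by 1 log2 unit or more over the nonclassical and the 3 progenitor arrays. Ifit1, an RNA-binding antiviral protein, was at 5.28 in nonclassical and 7.35 in classical monocytes, Ifit3 at 7.22 in nonclassical and 9.23 in classical cells and Mx1, a dynamin-like GTPase, at 7.63 in nonclassical and 9.03 in classical cells. Ifih1, the RNA sensor MDA5, was at 8.74 in nonclassical and 8.51 in classical cells. Of the 6 lower members with 1 RefSeq window 5 held GAAANNGAA, a short form of the interferon response element, against 7.3% of windows past the floor. The list was chosen as interferon-stimulated genes, so this share does not bear on their being lower.

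Granule and S100 genes were low in nonclassical monocytes. Of 14 primary granule genes past the floor 9 were lower and none higher. Mpo, myeloperoxidase, was at 7.04 in nonclassical monocytes, against 11.16 in classical monocytes and 13.41, 12.86 and 13.58 in MDP, CDP and cMoP. Prtn3 and Ctsg, serine proteases of the same granules, were at 6.33 in nonclassical and 10.91 in classical cells and at 5.39 in nonclassical and 10.69 in classical cells, and were likewise brighter in the progenitors than in classical monocytes. Secondary and tertiary granule genes had 7 of 12 lower, and 5 of those 7 were high on the classical array alone. Lcn2, the iron-siderophore carrier, was at 5.91 in nonclassical and 10.45 in classical monocytes. Of 9 S100 genes 6 were lower: S100a8, a calprotectin chain, was at 7.86 in nonclassical and 12.64 in classical cells, S100a9 at 8.18 in nonclassical and 12.07 in classical cells and S100a10 at 8.13 in nonclassical and 12.49 in classical cells, while S100a4 was at 12.38 in nonclassical and 12.82 in classical cells.

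Neutrophil markers moved with these genes in part. Of 13 measured, 5 reached the floor in nonclassical and 7 in classical monocytes, with mean log2 levels of 6.32 on the nonclassical and 7.59 on the classical array. The 4 lower ones, S100a8, S100a9, Lcn2 and Cd177, also belong to the lists above. The defining markers Ly6g, at 4.69 in nonclassical and 4.75 in classical cells, and Cxcr2, at 5.22 in nonclassical and 5.51 in classical cells, lay under the floor on both arrays, and so did Retnlg, at 4.96 in nonclassical and 4.73 in classical cells, and Ltf, at 4.94 in nonclassical and 4.63 in classical cells. Camp was at 6.64 in nonclassical and 6.89 in classical cells, and Ngp at 6.24 in nonclassical and 6.62 in classical cells. Csf3r, the brightest of the 13 on the nonclassical array, was at 10.31 there and 9.93 in classical cells, within the threshold.

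Coagulation, matrix and protease genes had a median difference of -1.94, 15 of 20 being lower and 1 higher, and 10 of the 15 were high on the classical array alone. Vcan, the proteoglycan versican, was at 4.97 in nonclassical and 9.40 in classical monocytes, Thbs1, thrombospondin, at 5.82 in nonclassical and 8.13 in classical cells, and Lgals1, galectin-1, at 10.64 in nonclassical and 12.75 in classical cells. F5 and F10, coagulation factors V and X, were at 5.93 in nonclassical and 8.66 in classical cells and at 8.78 in nonclassical and 10.56 in classical cells. Thbd, thrombomodulin, which restrains clotting, was the higher member at 9.69 in nonclassical and 8.11 in classical cells. Of 10 MS4A genes 5 were lower, with Ms4a8a at 6.20 in nonclassical and 9.57 in classical cells and Ms4a4c at 9.37 in nonclassical and 11.41 in classical cells, and Ms4a4a at 8.88 in nonclassical and 8.45 in classical cells.

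Metabolic and housekeeping lists differed by less, and their counts stand beside the 9.82% of all genes that were lower. Respiratory chain and ATP synthase genes had a median of -0.68 with 5 of 37 lower, a share near that of all genes, such as Ndufb3 (7.57 in nonclassical and 8.88 in classical cells), and 2 lower once the curve against level was subtracted. Of 18 glycolysis genes Eno3 was higher and Ldhb (6.80 in nonclassical and 8.53 in classical cells), Pgam1 (8.70 in nonclassical and 10.15 in classical cells) and Pgk1 (9.82 in nonclassical and 11.21 in classical cells) were lower. Glutathione and antioxidant genes had 6 of 23 lower, with Mgst2, a microsomal glutathione transferase, at 5.81 in nonclassical and 8.69 in classical cells and Prdx4, a peroxiredoxin, at 7.88 in nonclassical and 10.30 in classical cells. The 7 subunits of the phagocyte oxidase past the floor all lay within the threshold, with differences between -0.42 for Ncf1 and 0.27 for Cybb. Lysosomal genes had 6 of 35 lower and 1 higher: Lgmn, the protease legumain, was at 9.60 in nonclassical and 7.86 in classical cells, and Gla, alpha-galactosidase A, at 7.19 in nonclassical and 9.10 in classical cells. None of the 8 GIMAP genes reached the floor.

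Signalling lists were mostly within the threshold, and their counts stand beside 3.55% higher and 9.82% lower over all genes. Of 18 Src-family kinases and related genes 3 were higher, namely Fyn (9.48 in nonclassical and 7.57 in classical cells), Fgr (11.78 in nonclassical and 10.41 in classical cells) and the adaptor Pag1 (8.45 in nonclassical and 6.90 in classical cells). In the Notch pathway 3 of 18 were higher and 1 lower: Hes1, the modifying enzyme Lfng (10.37 in nonclassical and 8.34 in classical cells) and the coactivator Maml2 (8.03 in nonclassical and 6.13 in classical cells) were higher, and Notch1 was at 7.25 in nonclassical and 8.66 in classical cells. Notch2, the receptor required for nonclassical monocytes, differed by 0.70.

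The progenitor arrays place these differences. Of the 373 higher genes 318 (85.3%) were above all other 4 arrays by 1 log2 unit or more on the nonclassical array, and 103 (27.6%) lay under the floor in all 3 progenitors, against 4.89% of all genes past the floor. Their median was 9.18 in nonclassical monocytes, against 7.19 in classical monocytes and 6.70, 6.85 and 6.50 in MDP, CDP and cMoP. Of the 1031 lower genes 708 (68.7%) were lowest on the nonclassical array by that margin, and 120 (11.6%) were highest on the classical array by it. Their median was 6.89 in nonclassical monocytes, against 8.76 in classical monocytes and 8.76, 8.67 and 8.89 in the progenitors. In all 3 progenitors 92.3% of them reached the floor, which is near the 89.5% of all genes past the floor. These shares use the same 2 arrays as the calls and are a description.

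**Figure D5:**
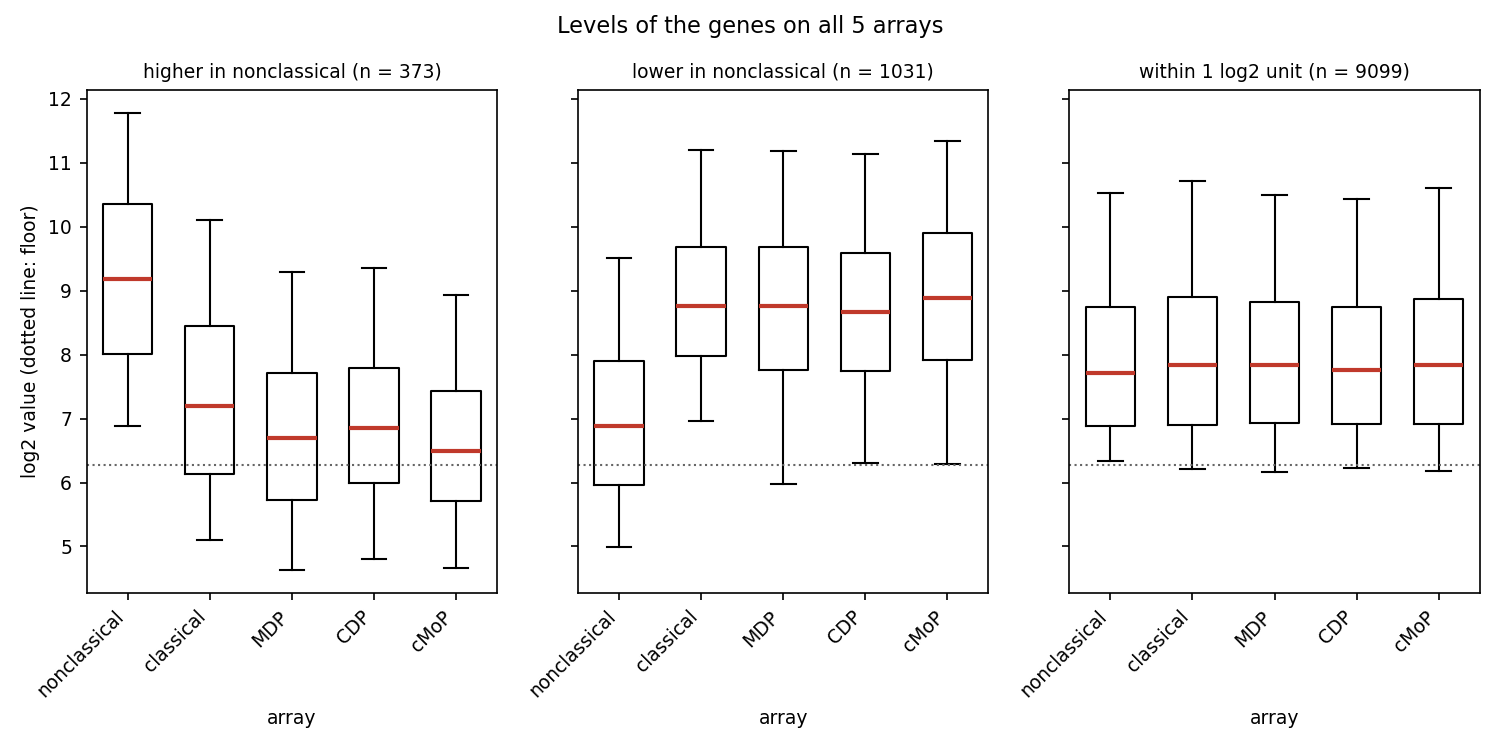
Log2 values on the 5 arrays for the 373 genes higher in nonclassical monocytes, the 1031 lower and the 9099 within 1 log2 unit, as boxes from the lower to the upper quartile with the median in red and whiskers to the 5th and 95th percentiles. The higher genes have a median of 9.18 on the nonclassical array and 6.50 to 7.19 elsewhere, and the lower genes one of 6.89 there and 8.67 to 8.89 elsewhere.

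Markers of cells the gate could have let in were read on both arrays. Past the floor, no B cell (0 of 3), T and NK cell (0 of 4) or megakaryocyte and platelet marker (0 of 5) was called. Of the erythroid (4) and conventional dendritic cell (7) markers 1 each was lower. Over all genes 3.55% were higher and 9.82% lower, so lists this small can hold no call at the background share. A call compares the arrays and does not show absence. Cd79b, of B cells, was at 9.28 in nonclassical and 8.41 in classical cells, and Xbp1 at 8.79 in nonclassical and 9.26 in classical cells. Of 6 plasmacytoid dendritic cell markers 3 were lower, and 2 of them, Irf8 and Bst2, also stand in lists above. Of 4 tissue macrophage markers past the floor Adgre1 was higher, at 11.25 in nonclassical and 9.65 in classical cells, while C1qa (5.60 in nonclassical and 5.55 in classical cells) and Vcam1 (4.95 in nonclassical and 4.84 in classical cells) lay under the floor. Of 4 basophil, mast cell and eosinophil markers past the floor 1 was higher, Prss34, at 7.86 in nonclassical and 6.52 in classical cells. All 4 had the larger value on the nonclassical array, with a median difference of 0.66. Of 5 endothelial and stromal markers 1 was higher, Pdgfrb, at 6.53 in nonclassical and 5.49 in classical cells. All 5 had the larger value on the nonclassical array, with a median difference of 0.62. The source of these differences was not tested.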

How the data were processed

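The values are the log2 values per probe set (35556) and array (5) that the authors deposited, between 1.59 and 14.24. Their software, background correction and normalization: not given in the sources used here. Nothing was renormalized. Depth does not apply to arrays, and 1 array per group limits the precision: there is no SD, test or interval. A probe set was used where the platform annotation pairs it with 1 symbol (21789; 1621 list several and 12146 none). A gene took its brightest probe set, by mean of the 5 arrays, and the floor is the median of all gene values. Genes are named by rule: the 20 largest differences each way with both values at or above the floor, the 10 largest each way with 1 value under it, and the members past the threshold in 47 lists, 11 of them markers of other cells; 1 list is not reported here. The text names part of these, and adds genes within the threshold, chosen after their values were seen. The members and lists were chosen with earlier results of these data known. Python 3.11.15, pandas 2.3.3 and statsmodels 0.14.6 were used, and the calling step was tested on simulated data. Alternatives were the mean over probe sets, other floors, median centring, quantile normalization, a lowess curve (fraction 0.3) and a threshold of 2. Promoter windows and gene order come from RefSeq, GRCm38.p6.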

Additional observations from a re-analysis of the deposited data

Results flagged for a closer look

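Probe sets that name no single gene were outside the comparison. Of 814 past the floor that list several symbols, 21 were higher in nonclassical monocytes and 84 lower by 1 log2 unit or more. Of 5577 past the floor with no listed symbol, 390 were higher and 253 lower, with a median difference of 0.12. Over the genes 3.55% were higher and 9.82% lower. The probe sets with no listed symbol thus leaned to the higher side, the reverse of the genes, and the reason was not tested. Both kinds of probe set are given here because they hold differences in data that no gene value used.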

How the results depend on the processing

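1 list median past the threshold reversed: that of the classical monocyte genes, -2.04 as reported, was 0.11 over the 6 members that no other list holds. No named gene past the threshold changed sign. At a threshold of 2 log2 units the counts were 116 genes higher and 313 lower. The other settings gave between 285 and 473 genes higher and between 786 and 1218 lower, against 373 and 1031. Subtracting a lowess curve left 361 of the 373 higher and 786 of the 1031 lower genes called, and moved the median of all genes by 0.10, while a floor at the upper quartile of 7.93 moved it by -0.18. After centring each array on its median 337 genes were higher and 1218 lower. After quantile normalization the counts were 454 higher and 858 lower. Of 309 genes named by the rule, the number that no longer passed the threshold was 4 with centring, 19 with quantile normalization, 23 with the lowess curve, 37 with the higher floor and 2 with the mean over probe sets. The 27 mitosis genes stayed lower in each of the 3 scalings. Of 46 list medians, 6 changed sign in a scaling: those of the pattern recognition, cytokine receptor, Notch, T and NK cell, tissue macrophage and sex-linked lists, each within 0.10 of 0 as reported. Over all settings 11 medians changed sign. Besides the classical monocyte list, the other 4 were those of the D cyclin list (0.27 as reported, -0.41 with the higher floor), the stem and progenitor list (-0.44 as reported, 0.19 with no floor and 0.01 without the genes of the sort markers), the plasmacytoid list (-0.42 as reported, 0.15 with no floor) and the conventional dendritic cell list (-0.17 as reported, 0.23 with the higher floor). The lists without the genes of the sort markers were added after seeing the data. No paired analysis was possible because each group has 1 array, and none could be left out in turn. Genes near the floor limit what a fold can show.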

Other observations

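Further gene groups were gathered after the values were seen, so their counts describe and support nothing. Histone genes had 18 of 26 past the floor lower and none higher in nonclassical monocytes, with H2ac4 at 5.70 in nonclassical and 10.64 in classical monocytes and the damage-linked variant H2ax at 7.20 in nonclassical and 10.93 in classical monocytes. Centromere and kinetochore genes had 22 of 29 lower, the 29 including Misp3, which is not a centromere gene and was within the threshold. Kinesins had 13 of 25 lower, with Kif21b higher at 9.51 in nonclassical and 8.26 in classical monocytes. Among E2F and cell cycle regulators 18 of 23 were lower, such as Foxm1, a driver of mitotic genes, at 5.17 in nonclassical and 9.21 in classical monocytes. Homologous recombination and Fanconi repair genes had 14 of 16 lower, and condensin and cohesin genes 11 of 17. Other kinds of DNA repair were not gathered. Smaller and more even differences were seen for proteasome subunits (7 of 38 lower, median -0.67), translation initiation factors (5 of 47, median -0.63) and mitochondrial ribosomal proteins (7 of 77, median -0.59). Over all genes 9.82% were lower, and the counts of the initiation factors and mitochondrial ribosomal proteins are near that share. The lower counts include Psmc3ip, which is not a proteasome subunit. They also include Eif2ak2, which is not an initiation factor and stands in the interferon list above.

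Immune checkpoint ligands and receptors had 4 of 10 higher and 1 lower. Cd274, which encodes PD-L1, was at 10.28 in nonclassical and 6.08 in classical monocytes, its neighbour Pdcd1lg2 (PD-L2) at 8.0 in nonclassical and 4.34 in classical monocytes, and Havcr2 (TIM-3) at 8.56 in nonclassical and 5.41 in classical monocytes. Lair1, a collagen receptor, was at 10.75 in nonclassical and 8.41 in classical monocytes, and Lgals9, galectin-9, at 8.49 in nonclassical and 10.18 in classical monocytes. In eicosanoid metabolism Alox5, 5-lipoxygenase, was at 10.12 in nonclassical and 7.61 in classical monocytes, while Ptgr1, which inactivates leukotriene B4, was at 5.95 in nonclassical and 9.68 in classical monocytes, and Tbxas1, thromboxane synthase, at 6.26 in nonclassical and 8.57 in classical monocytes. Of 9 annexins 6 were lower, with Anxa3 at 6.28 in nonclassical and 9.56 in classical monocytes. Of 8 Schlafen genes 5 were lower, with Slfn5 at 7.05 in nonclassical and 9.93 in classical monocytes.

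Olfactory receptor and keratin genes, which blood cells hardly use, gave a view of mostly dim probe sets. Over all 1123 of them the median level was 4.24 in nonclassical and 4.06 in classical monocytes. Of the 47 past the floor 45 had the larger value on the nonclassical array, with a median difference of 0.42. On the nonclassical array 46 reached the floor and on the classical array 29. The floor takes the higher of the 2 values and so treats both arrays alike. Over all 1123, with no floor, the mean level was likewise higher on the nonclassical array, at 4.34 against 4.18. The source of this offset was not tested. By the threshold 2 were higher, Krt80 at 11.21 in nonclassical and 8.59 in classical monocytes and Krt7 at 8.30 in nonclassical and 6.49 in classical monocytes. The 47 were chosen by the floor and set no range for small differences near it.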
